A study of Mus musculus with 56 samples.

Results

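The sites described here are places in the genome of mouse macrophages where the NF-κB subunit p65 was called in cells kept in IL-4 but not in control cells, before any LPS was given. Peaks of the 4 p65 samples without LPS were merged where they shared at least 1 bp. A merged region was kept as gained when it held a p65 peak in both IL-4 PT/ctrl samples and in neither ctrl/ctrl sample, which left 1426 of 18359 merged regions. By the same rule in the other direction 976 regions were lost with IL-4 (a peak in both ctrl/ctrl samples and in neither IL-4 PT/ctrl sample), and 4370 regions had a peak in all 4 samples and are called constant. All merged regions, unlike these sets, take in those with a peak in only 1 sample. These numbered 2461 and 1896 for IL-4 PT/ctrl replicates 1 and 2, and 1721 and 1503 for ctrl/ctrl replicates 1 and 2. The sites were thus chosen by the p65 peaks of the 4 samples without LPS, and p65 scores in those samples are given as a description only.

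The series held 56 ChIP-seq samples of wild-type mouse bone marrow-derived macrophages (BMDMs), bone marrow cells from animals 8 to 12 weeks of age grown for 6 days with L929 supernatant, a source of M-CSF. The p65 antibody was used on 8 samples, 2 each of ctrl/ctrl (no cytokine, no LPS), IL-4 PT/ctrl (IL-4 at 20 ng/ml for 24 hr), ctrl/LPS (LPS at 100 ng/ml for 1 hr) and IL-4 PT/LPS (24 hr of IL-4 followed by 1 hr of LPS). RNAPII-pS5, RNA polymerase II phosphorylated on serine 5 at the start of transcription, was measured in the same 4 conditions. It was also measured in 2 untreated samples and 2 samples given IL-4 for 1 hr. The histone acetyltransferase p300, the macrophage lineage factor PU.1 and the acetylated histone H3K27Ac were each measured in 2 untreated samples and 2 samples given IL-4 for 1 hr. Every group held 2 replicates, which the study describes as independent biological ones, and the p-values measure the spread between these samples. The series aimed to find how IL-4 changes the macrophage response to LPS.

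In resting macrophages NF-κB dimers containing p65 are held in the cytoplasm by IκB proteins. LPS, sensed by the receptor TLR4, leads to destruction of IκB, and p65 then enters the nucleus and binds enhancers and promoters of inflammatory genes. IL-4 acts through its receptor and the transcription factor STAT6, which binds a palindrome of TTC and GAA and drives the alternatively polarized macrophage state. p300 and H3K27Ac mark active enhancers, and PU.1 opens many of them in this lineage.

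To show what the gained sites look like, 200 bases around the middle of the highest p65 peak are printed for the 3 sites with the highest p65 scores in IL-4 PT/ctrl, and for the highest sites next to Cish, a feedback inhibitor of cytokine signaling, and Nfkbia, which encodes IκBα. All are from the RefSeq sequence of GRCm38 (mm10), plus strand, 5′ to 3′, and capitals mark matches to the motifs listed further on. In order, the windows are chr2:122712020-122712219, chr2:140846876-140847075, chr4:102608202-102608401, chr9:107307944-107308143 and chr12:55473980-55474179.
Slc30a4 site: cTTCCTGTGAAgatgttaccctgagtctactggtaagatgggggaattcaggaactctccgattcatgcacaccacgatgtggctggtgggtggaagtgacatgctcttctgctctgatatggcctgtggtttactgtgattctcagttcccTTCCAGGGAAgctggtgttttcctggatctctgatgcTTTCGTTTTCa
Flrt3 site: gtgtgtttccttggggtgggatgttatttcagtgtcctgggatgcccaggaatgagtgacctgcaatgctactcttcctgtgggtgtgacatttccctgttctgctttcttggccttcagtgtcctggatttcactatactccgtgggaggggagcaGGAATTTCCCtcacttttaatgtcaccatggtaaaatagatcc
Pde4b site: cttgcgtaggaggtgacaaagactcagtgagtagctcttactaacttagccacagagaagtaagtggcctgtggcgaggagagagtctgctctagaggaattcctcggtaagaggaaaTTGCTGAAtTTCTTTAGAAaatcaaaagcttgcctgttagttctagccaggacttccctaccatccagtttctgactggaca
Cish site: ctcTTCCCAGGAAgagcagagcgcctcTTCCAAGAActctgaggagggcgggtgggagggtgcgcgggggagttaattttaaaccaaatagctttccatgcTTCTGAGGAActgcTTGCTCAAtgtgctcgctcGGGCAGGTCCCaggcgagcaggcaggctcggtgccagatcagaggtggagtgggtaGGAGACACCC
Nfkbia site: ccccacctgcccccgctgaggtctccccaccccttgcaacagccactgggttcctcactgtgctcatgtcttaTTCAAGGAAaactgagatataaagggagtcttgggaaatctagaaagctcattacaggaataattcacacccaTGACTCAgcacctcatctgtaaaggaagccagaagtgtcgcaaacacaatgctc

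The Slc30a4 window held 2 STAT half-site pairs 4 bases apart, at bases 2 to 11 and 153 to 162, and an IRF match at bases 190 to 199, but no NF-κB match. The Flrt3 window held an NF-κB match at bases 158 to 167 and no STAT match. The Pde4b window held a C/EBP match at bases 119 to 126 and, just after it, a STAT pair at bases 128 to 137. In the Cish window there were 3 STAT pairs, at bases 4 to 13, 28 to 36 and 102 to 111, besides a C/EBP match and 3 NF-κB half-site matches, and in the Nfkbia window a STAT pair with 3 bases between TTC and GAA and an AP-1 match. These matches are letters in a window and were not tested as binding sites.

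The p65 peaks were modest before LPS. The peak score of the deposited files, a −log10 p or q value of the peak caller, had a median of 5.81 and 5.72 over the gained sites in the 2 IL-4 PT/ctrl samples, with quartiles of 4.41 to 8.08 and 4.43 to 7.88 and highest values of 43.22 and 46.54. The gained sites were 215 to 995 bp wide, with a median of 364 bp. At the edge of the rule, the lowest scores among the gained sites were 5.21 and 2.03 at an Hsd17b4 site, 2.05 and 4.87 at a Cd164 site and 2.05 and 3.6 at an Hccs site. Just outside it, regions next to Taf1b and Nup88 had IL-4 PT/ctrl scores of 3.72 and 5.09 and of 4.27 and 3.77, and were left out for a single ctrl/ctrl peak of 1.62 or 2.03. In all, 1211 regions with both IL-4 PT/ctrl peaks were left out for 1 ctrl/ctrl peak, with a median score of 5.28 in that sample, so a gained site is one where no peak was called in control cells, and p65 was not shown to be absent there.

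The p65 samples held 9556 to 11026 peaks without LPS, 26305 and 26820 in ctrl/LPS, and 36738 and 38955 in IL-4 PT/LPS, and the files give no read depth. Of 8 macrophage genes, 7 to 8 carried an RNAPII-pS5 peak in each of the 8 samples of that antibody in the 4 conditions. Of marker genes of other cells, 1 of 5 T cell, 1 of 4 B cell, 0 to 2 of 5 neutrophil, 1 of 5 dendritic cell, 1 of 5 stromal and 0 of 5 mast cell or basophil genes did, and Cd3e, Cd4, Pax5, Ly6g and Mpo carried none. In these bulk samples, p65 bound in more cells and more p65 bound per cell cannot be told apart. The p300 sample of untreated cells numbered 1 had 44787 peaks against 66710 to 69360 in the other p300 samples, and its scores were mostly the lower of the untreated pair at the sites named below.

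Most gained sites lay away from promoters. Of the 1426 sites, 611 (42.8%) were intergenic, 597 (41.9%) lay in introns and 164 (11.5%) were annotated promoter-TSS, against 16.1% promoter-TSS over all 18359 regions and 11.9% over the constant regions. The median distance to the nearest transcription start site was 18466 bp, compared with 14452 bp over all regions and 17496.5 bp over the constant ones. LTR elements were named in the detailed annotation of 85 sites (5.96%, and 5.94% of all regions). The sites fell next to 1234 genes, of which 1077 had 1 site, 130 had 2 and 27 had 3 or more. The noncoding gene 0610040F04Rik was the nearest annotated gene of 5 gained sites. Dock10, a guanine nucleotide exchange factor, Mpp6, a membrane scaffold protein, Prdm1, which encodes the transcriptional repressor Blimp-1, and Zc3h12c each had 4. Among genes with 3 were Nfkbia, Tlr4, Socs1, a suppressor of JAK-STAT signaling, Cebpa, a myeloid transcription factor, Igf1, a growth factor, Ctsk, the protease cathepsin K, and F7, coagulation factor VII. All 3 regions next to Ctsk and all 3 next to F7 were gained sites.

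After LPS alone p65 was called at the gained sites about as often as over all regions, and after IL-4 and LPS more often. All regions include those with a peak in only 1 sample without LPS. A p65 peak was found in both ctrl/LPS samples at 899 gained sites (63.0%) and in both IL-4 PT/LPS samples at 1189 (83.4%), compared with 61.4% and 69.7% of all regions, 66.4% and 62.9% of the lost regions and 92.3% and 94.9% of the constant ones. At 862 gained sites (60.4%) the peak was present in all 4 LPS samples. At 175 (12.3%) it was in both IL-4 PT/LPS samples and in neither ctrl/LPS sample, against 2.36% of lost and 5.76% of all regions. The opposite pattern was found at 8 gained sites (0.561%), no LPS sample had a peak at 76 (5.33%), and 305 (21.4%) had a peak in only 1 sample of a condition. Where a peak was called, its median score was 12.3 and 11.9 in the ctrl/LPS samples and 19.5 and 20.6 in the IL-4 PT/LPS samples. Both IL-4 PT/LPS samples also held more p65 peaks in all, and its part in this difference was not tested.

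**Figure D1:**
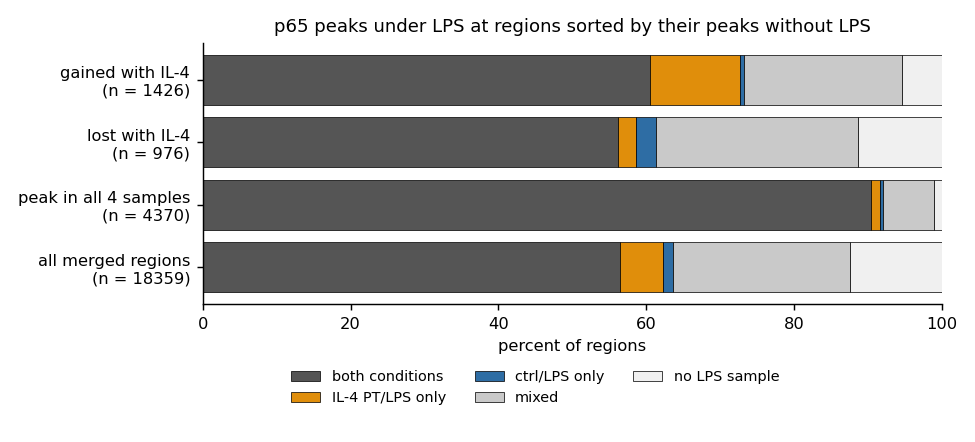
Bars give the percent of regions by where their p65 peaks were found after LPS (2 samples of each condition), for regions gained with IL-4, lost with IL-4, constant and all merged regions. The part seen only in IL-4 PT/LPS is 12.3% of the gained sites and 2.36% of the lost ones.

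To test the change itself, log2 peak scores were centred on regions with a peak in every sample, a missing peak was set to the lowest score of the files compared, and limma was fitted over all merged regions of each antibody, with calls at an adjusted p of at most 0.05. The p65 samples with LPS were not used by the rule. Of the 1263 gained sites tested, 291 (23.0%) had a higher p65 score in IL-4 PT/LPS than in ctrl/LPS and 22 (1.74%) a lower one. Over all 35571 regions tested, 18.7% were higher and 6.28% lower. The median log2 change was 0.57 at the gained sites, 0.22 over all regions tested and −0.55 at the lost ones. Of the 291 higher sites, 148 had no peak in either ctrl/LPS sample, so the size of their change depends on the value put in for a missing peak. A ctrl/LPS peak lay within 1000 bp of 16 of these 148. With regions that had a peak in every sample, 206 of 868 gained sites (23.7%) were higher and 35 (4.03%) lower, where 8.03% and 11.2% of all such regions were. Their median change was 0.29, against −0.12 over all such regions, −0.51 at lost and −0.26 at constant regions. Centring took out a shift of 0.46 towards IL-4 PT/LPS. The count of higher sites fell to 92 without IL-4 PT/LPS replicate 1 and to 108 without replicate 2.

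The 12 highest gained sites were taken by the lower of their 2 IL-4 PT/ctrl scores. Of these 12, limma called 6 higher and 0 lower in IL-4 PT/LPS than in ctrl/LPS. Over all regions tested 18.7% were higher and 6.28% lower. The highest site lay 9.46 kb upstream of Slc30a4, which encodes a zinc transporter, at chr2:122711850-122712392. Its p65 scores were 43.22 and 46.54 in IL-4 PT/ctrl, 21.41 and 19.47 in ctrl/LPS and 108.89 and 115.9 in IL-4 PT/LPS, a log2 change with LPS of 2.00 (SE 0.12, limma adjusted p = 0.0292). The IL-4 PT/ctrl scores stood above those of ctrl/LPS as deposited, without centring. The site was named for its IL-4 PT/ctrl score, so this order was not tested. At chr2:140846782-140847176, in an intron of Macrod2 and 176.0 kb upstream of Flrt3, a cell adhesion protein gene, the scores were 21.82 and 25.72 in IL-4 PT/ctrl, 50.77 and 47.33 in ctrl/LPS and 147.98 and 141.34 in IL-4 PT/LPS (log2 change 1.11, SE 0.11, adjusted p = 0.0292). At the site 18.5 kb downstream of the start of Pde4b, a cAMP phosphodiesterase gene, they were 21.44 and 25.3, 17.96 and 13.32, and 42.15 and 38.43, and the change of 0.92 (SE 0.24) did not pass the test (adjusted p = 0.0679). Near the neutrophil chemokine gene Cxcl5, scores of 65.64 and 68.48 in ctrl/LPS and 98.92 and 91.61 in IL-4 PT/LPS left a centred change of 0.05 (SE 0.11, adjusted p = 0.787), the weakest of the 12.

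**Figure D2:**
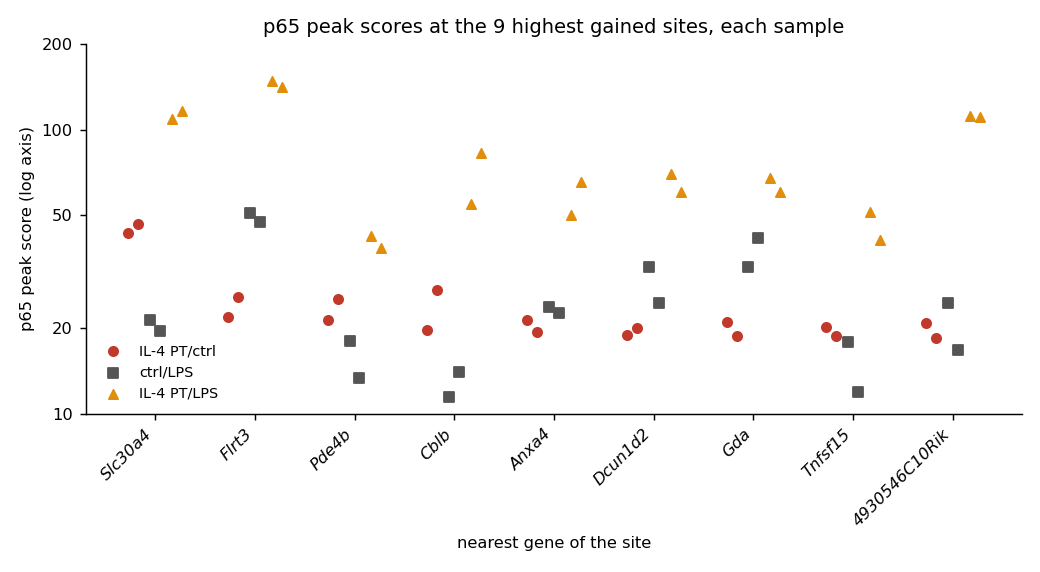
Points are p65 peak scores (log axis) in each of the 6 samples with IL-4 or LPS at the 9 gained sites with the highest scores in IL-4 PT/ctrl, named by nearest gene. At all 9 both IL-4 PT/LPS points lie above both ctrl/LPS points. At Slc30a4 the IL-4 PT/ctrl points (43.22 and 46.54) lie above those of ctrl/LPS (21.41 and 19.47). Scores are as deposited, not centred, and the sites were chosen by their IL-4 PT/ctrl points.

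Beyond the 12, the p65 changes of greatest size were at sites with no ctrl/LPS peak. The site 3.09 kb upstream of Ear4, an eosinophil-associated ribonuclease gene, scored 8.48 and 13.42 in IL-4 PT/ctrl, had no peak in ctrl/LPS and scored 53.58 and 54.24 in IL-4 PT/LPS (adjusted p = 0.0292). The sites next to Thrb, a thyroid hormone receptor gene, Il6st, which encodes the IL-6 signal transducer gp130, Cd200r3 and Trat1 had IL-4 PT/LPS scores between 41.75 and 51.47 and no peak in ctrl/LPS (each adjusted p = 0.0292). In the lower direction the scores were small. One was a promoter site of Casp8ap2. Another was annotated to the promoter of Pus7l and lay 0.19 kb downstream of the start of Irak4, an LPS pathway kinase gene. There ctrl/LPS scores of 6.21 and 3.85 and of 4.23 and 4.68 stood against no peak in IL-4 PT/LPS (limma adjusted p = 0.0296 and 0.0292). However, an IL-4 PT/LPS peak of 4.18 in replicate 1 lay 237 bp from the former and one of 3.77 in replicate 2 lay 71 bp from the latter.

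Like most p65 regions, nearly all gained sites carried p300 already in untreated cells, and p300 rose at a part of them within 1 hr of IL-4. Peaks of p300 were found at 1292 and 1385 of the 1426 sites (90.6% and 97.1%) in the untreated samples, against 86.6% and 94.1% of all and 94.5% and 96.8% of constant regions, and at 1403 sites in each IL-4 sample. Of 1409 sites tested, 413 (29.3%) were higher and 136 (9.65%) lower after 1 hr of IL-4, and over all 67229 regions tested 13.6% were higher and 7.44% lower. The median log2 change was 0.20 against 0.11. Among sites with a peak in every sample, 361 of 1301 (27.7%) were higher and 141 (10.8%) lower, compared with 11.5% and 12.0% of all such regions. Without untreated replicate 1, the sample with fewer peaks, the counts were 438 and 138, and without untreated replicate 2 they were 503 and 264. Without IL-4 replicate 1 or 2 they fell to 269 and 44 or to 277 and 47. Centring took out a shift of 0.67 towards IL-4, without it limma called 0 gained sites in either direction (215 higher and 1 lower at an unadjusted p of at most 0.05), and quantile normalization gave 397 higher and 248 lower. All 12 of the highest p65 sites were among those called higher.

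At the Slc30a4 site p300 scored 43.04 and 117.62 before and 293.8 and 270.28 after 1 hr of IL-4 (log2 change 1.32, SE 0.21, adjusted p = 1.89e-05). At the site 95.6 kb downstream of the start of Gda, the guanine deaminase gene, they rose from 8.37 and 40.85 to 352.28 and 334.0 (3.54, SE 0.23, adjusted p = 2.24e-13). The site 11.4 kb from Cish went from no p300 peak to 211.04 and 212.08 (adjusted p = 5.69e-13), with untreated peaks of 10.66 and 68.5 lying 1066 bp away. An Mpp6 site had none and then 217.44 and 230.21 (adjusted p = 3.29e-13), with an untreated peak of 4.23 in 1 sample 757 bp away. A site 47.0 kb upstream of the kinase gene Pim1 had none and then 209.27 and 202.62 (adjusted p = 7.73e-13), with untreated peaks of 14.91 and 22.28 lying 1285 bp away. After IL-4 these sites stood far above the median p300 peak scores of those samples, 19.23 and 18.18. Among the sites that fell, one 1.16 kb upstream of a start of Ciita, which encodes the MHC class II transactivator, went from 7.14 and 29.54 to 7.57 and 6.66 (log2 change −1.70, SE 0.58, adjusted p = 0.0349), and its lower untreated score came from the sample with fewer peaks. At a B930025P03Rik site p300 fell from 16.95 and 76.82 to 8.06 and 29.6 (−1.89, SE 0.39, adjusted p = 0.000466).

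PU.1 peaks lay at 1032 and 964 of the 1426 gained sites (72.4% and 67.6%) in the untreated samples, against 73.4% and 69.1% of all and 83.8% and 81.4% of constant regions, and at 1076 and 1092 gained sites after IL-4. limma called 15 of 1108 sites (1.35%) higher and 0 lower, and over all 67996 regions 0.0735% were higher and 0.0% lower. At an unadjusted p of at most 0.05, 203 (18.3%) were higher and 41 (3.7%) lower, against 5.88% and 4.71% of all regions. The median log2 change was 0.17 at the gained sites and −0.05 over all regions tested. The calls rest on the scaling, since with no centring (a shift of 0.33 towards IL-4) or with quantile normalization none was left at the adjusted threshold (235 and 178 higher at the unadjusted one). PU.1 rose next to Akirin2, which encodes a nuclear cofactor of inflammatory transcription, where scores of 79.29 and 47.75 appeared with IL-4 and no untreated peak was called (adjusted p = 0.025), and next to Gpr65, a proton-sensing receptor gene, with none before and then 48.98 and 45.57 (adjusted p = 0.0431). The Ang2 site went from 8.66 in 1 untreated sample to 110.66 and 129.03 (adjusted p = 0.025). At the Pde4b site PU.1 rose from 15.52 and 9.22 to 93.69 and 113.59 (log2 change 2.77, SE 0.31, adjusted p = 0.0215), one of the gained sites with clear peaks in every sample. All 15 sites where PU.1 rose were also sites where p300 rose, an overlap that was not counted over other regions.

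H3K27Ac moved in both directions at the gained sites. Of 1011 sites tested, 337 (33.3%) were higher and 260 (25.7%) lower after 1 hr of IL-4, against 20.7% and 22.8% of all 28929 regions, and the median change was 0.03. Where every sample had a peak, 310 of 859 (36.1%) were higher and 277 (32.2%) lower, against 25.4% and 29.5% of all such regions. Each H3K27Ac file holds peaks of 1001 bp whose starts lie at least 2531 to 2597 bp apart, so a missing peak is not a measured 0. Of the called sites, 59 of the higher had no peak in either untreated sample and 32 of the lower had none in either IL-4 sample. H3K27Ac and p300 were mostly called in the same direction at these sites, and their agreement over other regions was not counted. Of the sites where both were called, 214 were higher and 79 lower in both, 6 were higher in p300 and lower in H3K27Ac, and 1 was lower in p300 and higher in H3K27Ac.

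H3K27Ac at the Slc30a4 site rose from 63.5 and 75.6 to 370.2 and 365.9 (log2 change 2.46, SE 0.10, adjusted p = 0.000452). The Pde4b site rose from 126.8 and 123.4 to 530.4 and 500.9 (2.10, SE 0.05, adjusted p = 0.000109), and the promoter site of Socs1 from 175.0 and 168.4 to 683.7 and 646.0 (2.01, SE 0.05, adjusted p = 0.000116). In each the IL-4 samples stood well clear of the untreated ones. At the Zc3h12a site, next to the gene of an RNase that limits inflammatory mRNAs, no untreated peak was called and the IL-4 samples scored 577.1 and 598.1 (adjusted p = 4.65e-05), the nearest untreated peaks lying 12451 bp away. At the site in an intron of Srgap2 whose nearest gene is Ikbke, an IκB kinase family gene, untreated scores of 342.9 and 330.2 stood against no peak with IL-4 (adjusted p = 4.81e-05), while p300 rose there from 25.32 and 61.99 to 180.59 and 175.96 (adjusted p = 2.19e-06).

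Without LPS, RNAPII-pS5 peaks were called at more of these sites in IL-4 PT/ctrl than in ctrl/ctrl. These samples share their conditions and replicate numbers with the p65 samples, and the labels do not say whether they share chromatin. A RNAPII-pS5 peak was found at 602 and 571 gained sites in ctrl/ctrl and at 980 and 997 in IL-4 PT/ctrl. Other RNAPII-pS5 samples, from the 1 hr IL-4 experiment, had a peak at 1051 and 952 gained sites (73.7% and 66.8%) in untreated cells. After 1 hr of IL-4 the numbers were 1033 and 982. Their untreated samples held 35424 and 30639 peaks in all, against 20803 and 19279 in ctrl/ctrl. A site without a ctrl/ctrl peak was thus not shown to lack RNAPII-pS5 in control cells. At 332 sites (23.3%) a RNAPII-pS5 peak was in both IL-4 PT/ctrl samples and in neither ctrl/ctrl sample. The same held for 1.02% of lost, 2.54% of constant and 6.36% of all regions. By limma 332 of 996 sites tested (33.3%) were higher with IL-4 and 17 (1.71%) lower, against 12.9% and 8.44% of all 21904 regions, with a median log2 change of 1.04 against 0.05. Of the higher sites, 293 had no ctrl/ctrl peak, and among sites with a peak in every sample 50 of 455 were higher and 3 (0.659%) lower, against 3.34% and 2.87% of all such regions. The number of calls fell to 6 and 12 higher sites without IL-4 PT/ctrl replicate 1 or 2, and to 202 and 214 without ctrl/ctrl replicate 1 or 2.

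After LPS the difference was smaller. RNAPII-pS5 peaks were found at 620 and 636 gained sites in ctrl/LPS and at 821 and 828 in IL-4 PT/LPS, and 183 of 859 sites tested (21.3%) were higher with IL-4 and 41 (4.77%) lower, against 17.4% and 9.64% of all 17409 regions. The median change was 0.33, and 0.17 over all regions. Of the higher sites, 147 had a peak in neither ctrl/LPS sample, and 26 of the lower had one in neither IL-4 PT/LPS sample. Among 473 sites with a peak in every sample, 48 (10.1%) were higher and 24 (5.07%) lower. The shares were 3.92% and 11.8% of such lost regions and 4.5% and 15.5% of such constant ones. The median change at these 473 was 0.05, against 0.0 over all regions with a peak in every sample. Without ctrl/LPS replicate 1 or 2 limma called 0 sites in either direction (210 and 209 higher, 47 and 35 lower, at an unadjusted p of at most 0.05), and without IL-4 PT/LPS replicate 1 or 2 it called 22 and 24 higher. To test whether the IL-4 effect differed with LPS, an interaction was fitted over all 8 samples. The effect was larger with LPS at 50 of 1163 gained sites (4.3%) and smaller at 180 (15.5%), where 8.93% and 8.73% of all 27609 regions were. The median difference was −0.62 against −0.05. Missing peaks took the lowest score, and samples with LPS held 14476 to 18207 RNAPII-pS5 peaks, against 19279 to 22149 without LPS. The sites were also chosen by p65 peaks in IL-4 PT/ctrl. What part either had in this difference was not tested.

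**Figure D3:**
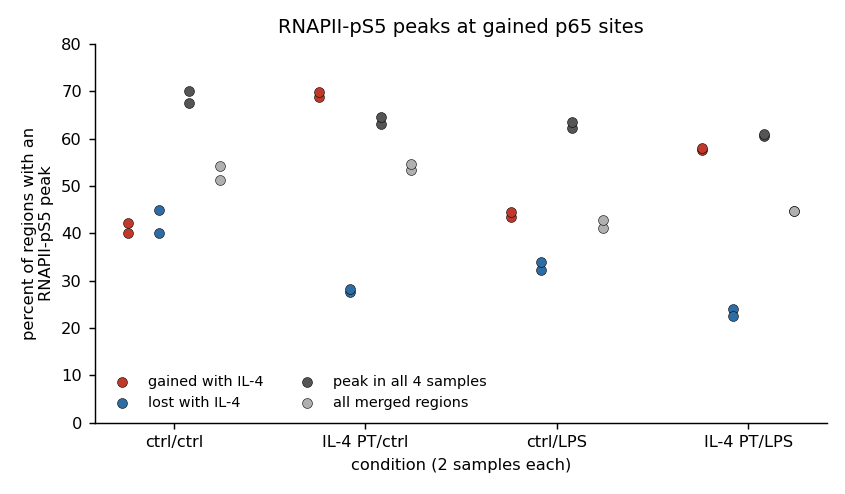
Points give the percent of regions with an RNAPII-pS5 peak in each of 8 samples, by condition, for gained, lost, constant and all merged p65 regions. For the gained sites, 602 and 571 peaks in ctrl/ctrl stand against 980 and 997 in IL-4 PT/ctrl, while the lost regions move the other way.

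The Tnfsf15 site, 45.2 kb downstream of the start of the gene of the TNF family ligand TL1A, had no RNAPII-pS5 peak in ctrl/ctrl and scores of 39.1 and 30.3 in IL-4 PT/ctrl (adjusted p = 0.0353). The site upstream of the cytokine gene Il22 had none and then 29.45 and 36.47, the Ang2 site none and then 27.74 and 29.07, and the Slc30a4 site none and then 22.24 and 16.12 (each adjusted p = 0.0353). None of these 4 sites had a called peak in ctrl/ctrl, so no fold is given. With LPS the Slc30a4 site had 5.99 and 9.63 in ctrl/LPS and 28.99 and 32.13 in IL-4 PT/LPS (centred log2 change 1.87, SE 0.29, adjusted p = 0.0257). At a site in an intron of Fndc3b, RNAPII-pS5 fell without LPS from 28.05 and 25.36 to 3.81 and 7.52 (−2.31, SE 0.39, adjusted p = 0.0353).

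**Figure D4:**
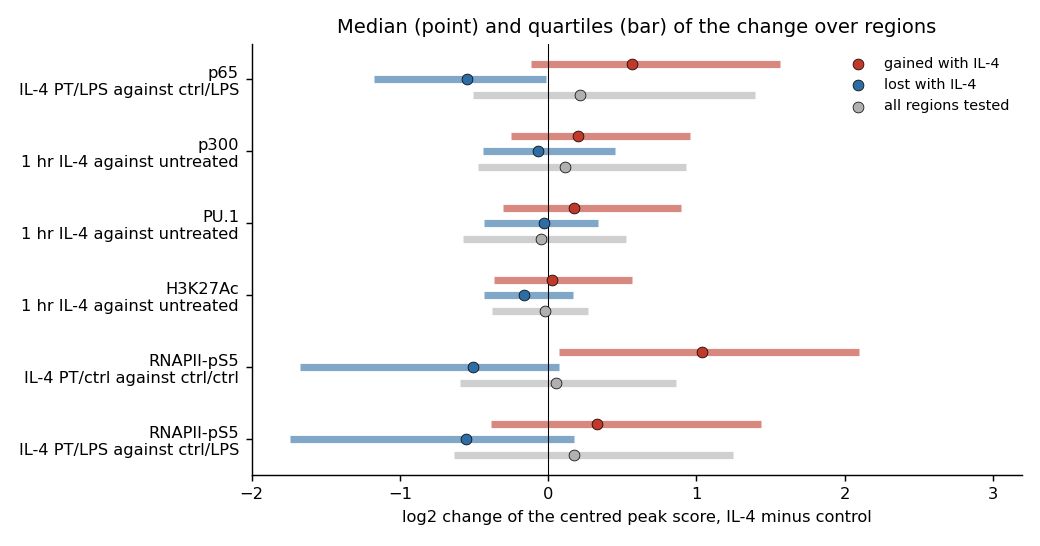
Points are median and bars quartiles of the log2 change (IL-4 minus control, centred peak scores) over gained, lost and all tested regions in 6 comparisons. The gained sites have medians of 1.04 for RNAPII-pS5 without LPS and 0.57 for p65 with LPS, against 0.05 and 0.22 over all regions tested. Missing peaks are set to the lowest score here. With a peak in every sample these medians were 0.32 and 0.29, against −0.005 and −0.12.

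Among the groups formed by fate, the 175 sites seen with LPS only after IL-4 had the highest median p300 change. p300 was higher at 81 and lower at 8 of 172 tested, with a median log2 change of 0.80, compared with 241 and 104 of 851 and a median of 0.13 at the sites bound in all 4 LPS samples. RNAPII-pS5 without LPS was higher at 60 of 111 and lower at 1 (median 1.91), against 197 and 6 of 598 (median 1.20). RNAPII-pS5 without LPS was higher at 19 and lower at 3 of 128 promoter-TSS sites and higher at 178 and lower at 4 of 445 intergenic sites, with medians of 0.21 and 1.45. Over all regions tested 12.9% were higher and 8.44% lower for RNAPII-pS5 without LPS, and 13.6% and 7.44% for p300. Calls were split by fate and by annotation for the gained sites only, and missing peaks were set to the lowest score in these medians too. Over the 6 comparisons together, 573 gained sites were higher in none, 421 in 1, 227 in 2, 140 in 3, 50 in 4, 14 in 5 and 1 in all 6. By the same tally 1057 were lower in none, 272 in 1, 88 in 2, 8 in 3 and 1 in 4. A site not tested in a comparison counted as not called there, and the tally was not made over all regions.

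Genes that the study had listed as induced by IL-4 from RNA-seq, which is not part of the ChIP samples, were the nearest gene of 284 gained sites (19.9%), compared with 7.58% of lost, 10.5% of constant and 10.7% of all regions. Genes it had listed as repressed by IL-4 were nearest to 82 (5.75%), against 9.63% of lost and 8.12% of all regions. At the 284 sites p300 was higher at 132 and lower at 11 of 280, H3K27Ac higher at 112 and lower at 27 of 180, and RNAPII-pS5 without LPS higher at 88 and lower at 5 of 187. Over all regions tested 13.6% were higher and 7.44% lower for p300, 20.7% and 22.8% for H3K27Ac, and 12.9% and 8.44% for RNAPII-pS5. At the 82 sites p300 was higher at 18 and lower at 10 of 81, and H3K27Ac higher at 7 and lower at 34 of 57.

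Of 33 genes of alternative activation, 12 had a gained site, with 15 sites between them (1.05% of gained and 0.708% of all regions). p300 was higher at 12 of 14 tested and H3K27Ac at 8 of 8, and p65 with LPS was higher at 7 and lower at 1 of 12, where 13.6%, 20.7% and 18.7% of all regions tested were higher. The site 11.2 kb upstream of Slc7a2, which encodes an arginine transporter, had p65 scores of 5.4 and 4.04 in IL-4 PT/ctrl, 3.69 and 5.25 in ctrl/LPS and 40.72 and 37.34 in IL-4 PT/LPS (log2 change 2.69, SE 0.31, adjusted p = 0.0292). That near Ccl24, the gene of the chemokine eotaxin-2, had 6.66 and 4.18, then 8.63 and 9.05, then 58.28 and 61.79 (2.31, SE 0.17, adjusted p = 0.0292). In both cases IL-4 or LPS alone gave low scores and the 2 samples with both stood apart from the rest. The intronic site of Cdh1, the E-cadherin gene, and the site upstream of the lectin gene Mgl2 had no p65 peak in ctrl/LPS and 10.94 and 20.0 and 14.44 and 8.14 in IL-4 PT/LPS (adjusted p = 0.0293 and 0.0336). At Cdh1 p300 went from 29.39 and 127.6 to 252.84 and 245.3 and H3K27Ac from 124.0 and 110.3 to 321.5 and 345.4 (adjusted p = 1.61e-05 and 0.000672).

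JAK-STAT and IL-4 receptor genes had 8 gained sites (0.561% of gained and 0.463% of all regions), among them sites next to Bcl6, Cish, Irs2, Socs1 and Tyk2. p300 was higher at 6 of the 8, against 13.6% of all regions tested. Cish and Socs1 are also on the alternative activation list, so their sites were counted in both lists. The Cish site had p65 scores of 14.41 and 15.32 in IL-4 PT/ctrl, no peak in ctrl/LPS and 30.66 and 38.96 in IL-4 PT/LPS (adjusted p = 0.0292). Socs1 had a promoter site 0.647 kb upstream of its start and 2 more in introns of Clec16a. At the promoter p300 rose from 15.79 and 25.73 to 218.64 and 213.35 (2.75, SE 0.24, adjusted p = 2.03e-10). RNAPII-pS5 there was 11.38 and 7.73 in ctrl/ctrl with no peak in IL-4 PT/ctrl (limma adjusted p = 0.0353). However, IL-4 PT/ctrl peaks of 12.84 and 16.21 lay 1731 bp away, so a loss at the promoter was not shown. With LPS there was no peak in ctrl/LPS and 16.65 and 18.35 in IL-4 PT/LPS (limma adjusted p = 0.0257), although ctrl/LPS peaks of 7.85 and 10.07 lay 434 bp away.

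NF-κB subunits, inhibitors and upstream kinases had 12 gained sites (0.842% of gained and 0.714% of all regions), next to Ikbke, Irak4, Myd88, Nfkbia, Nfkbiz, Rel, Tnip1 and Traf1. p300 was higher at 2 and lower at 1 of the 12, and p65 with LPS higher at 2 and lower at 1 of 11, against 13.6% and 7.44% of all regions tested for p300 and 18.7% and 6.28% for p65. The highest of the Nfkbia sites had p65 scores of 12.49 and 17.69 in IL-4 PT/ctrl, 37.8 and 44.88 in ctrl/LPS and 47.35 and 46.86 in IL-4 PT/LPS, a change of −0.26 (SE 0.15, adjusted p = 0.282). In contrast, a Nfkbia site 42.1 kb downstream had 12.32 and 14.57 in ctrl/LPS and 43.84 and 59.32 in IL-4 PT/LPS (1.47, SE 0.21, adjusted p = 0.0293). The site near Traf1, an adaptor of TNF receptors, went from 3.12 and 4.95 to 28.22 and 23.43 (2.25, SE 0.38, adjusted p = 0.0314). The Tnip1 intron site, in the gene of an A20 partner, had 47.8 and 50.7 and then 60.06 and 65.44 (−0.11, SE 0.10, adjusted p = 0.518).

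Of 45 inflammatory cytokine, chemokine and effector genes, 5 had gained sites, 7 in all (0.491% of gained and 0.632% of all regions). p300 was higher at 2 and lower at 1 of the 7, and p65 with LPS higher at 2 and lower at 0. Over all regions tested 13.6% were higher and 7.44% lower for p300, and 18.7% and 6.28% for p65. The site 57.8 kb upstream of Il12a, which encodes the p35 subunit of IL-12, had p65 scores of 9.27 and 13.72 in IL-4 PT/ctrl, 28.28 and 20.17 in ctrl/LPS and 75.62 and 105.81 in IL-4 PT/LPS (1.45, SE 0.25, adjusted p = 0.0321). RNAPII-pS5 there scored 8.51 and 10.17 in ctrl/LPS and 43.92 and 33.91 in IL-4 PT/LPS (1.92, SE 0.21, limma adjusted p = 0.0257). Of 3 sites whose nearest gene was Tlr4, the one 24.4 kb downstream of its start had p300 scores of 18.02 and 56.19 and then 238.7 and 242.94, and PU.1 scores of 8.0 and 5.64 and then 80.18 and 90.45 (adjusted p = 5.12e-10 and 0.0167). The others lay 15.5 kb and 565.0 kb downstream. Neither p300 (limma adjusted p = 0.496 and 0.733) nor PU.1 (0.444 and 0.507) was called there. The Vcam1 site, near an adhesion molecule gene, had H3K27Ac scores of 413.2 and 399.9 that fell to 301.6 and 298.2 (−0.39, SE 0.04, adjusted p = 0.00339). The Cxcl3 site had p65 scores of 20.13 and 17.97 in ctrl/LPS and 27.15 and 19.7 in IL-4 PT/LPS, which overlapped (centred log2 change −0.17, SE 0.28, adjusted p = 0.7).

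The DNA under the gained sites held fewer NF-κB and more STAT letters than that of the other regions. Motifs were searched on both strands of the 200 bp window, and no test was run on the shares. NF-κB half-sites, GGG and CC with 5 bases between, were found in 33.2% of gained, 50.3% of lost, 49.5% of constant and 39.3% of all windows, and a degenerate NF-κB consensus, whose matches also count as half-site matches, in 8.42%, 24.3%, 25.2% and 13.2%. STAT half-sites TTC and GAA with 4 bases between were in 15.7% of gained, 5.44% of lost, 8.02% of constant and 8.06% of all windows, and with 3 bases between (TTCNNNGAA) in 9.54%, 5.85%, 8.02% and 7.26%. The AP-1 motif TGANTCA was in 20.1% of gained and 12.9% of all windows, the C/EBP motif TTGCNNAA in 18.8% and 15.5%, the EGR motif GCGTGGG in 5.47% and 2.59%, the PU.1 motif GAGGAAGT in 7.36% and 10.6%, and an IRF motif in 4.07% and 5.23%. The median GC content was 48.5% in gained and in all windows.

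The shares also differed by fate. STAT half-sites 4 bases apart were in 33.7% of the 175 sites seen with LPS only after IL-4, such as the Cish site printed above, and in 13.1% of the 862 sites bound in all LPS samples. AP-1 letters were in 8.57% of the former, 28.9% of the latter and 1.32% of the 76 sites without a peak in any LPS sample. NF-κB half-sites differed less, at 37.7%, 32.7% and 30.3%.

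**Figure D5:**
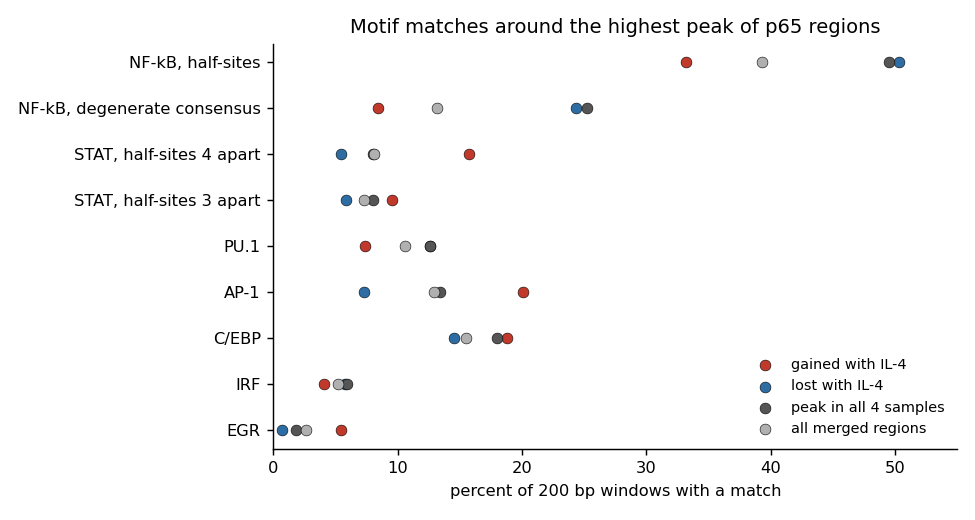
Points are the percent of 200 bp windows with at least 1 match to each motif on either strand, for gained, lost, constant and all merged p65 regions. STAT half-sites 4 bases apart reach 15.7% in gained windows against 8.06% of all, and NF-κB half-sites 33.2% against 39.3%.

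HDAC3, a histone deacetylase measured after 1 hr of IL-4, had peaks at 602 and 434 gained sites in untreated cells and at 738 and 698 after IL-4, while its peaks over all regions numbered 8061 and 6129 and then 8636 and 7917. No score test was run for it.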

How the data were processed

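The authors aligned ChIP-seq reads to mm10 with BWA 0.7.10 and SAMtools 0.1.19, called peaks per sample with MACS2 2.0.10 at a stated q-value cut-off of 0.01, left out blacklisted regions and used HOMER 4.2 for annotation. The deposited MACS2 files give a −log10 p or q value per peak; which of them is not stated, and up to 0.938% of a file's scores lie under 2, the −log10 of the cut-off. The H3K27Ac files hold a HOMER peak signal (normalized tags), as deposited by the authors. Read depth is unknown, so peak numbers stand in for it. The 12 RNAPII-pS2 samples were not used.

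Peaks sharing 1 bp were merged in Python 3.11.15 (NumPy 2.4.6, pandas 2.3.3; plots in Matplotlib 3.10.9). For each comparison, the highest score per merged region was log2 transformed, a missing peak being set to the lowest score of the files, and the scores of every sample were shifted to a common median over regions with a peak in all samples compared. Regions with a peak in at least 2 samples were tested with limma 3.58.1 (R 4.3.3) with Benjamini-Hochberg adjustment over all of them, and every adjusted p printed is limma's. The fit was checked on simulated data with 200 changed regions. An exact permutation test of 2 against 2 samples cannot go below 0.333. Fold changes of scores are not fold changes of binding, since a significance score grows with depth. SDs of the log2 difference between replicates were 0.17 to 0.79.

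Sites were named by a rule: the 12 with the highest lower IL-4 PT/ctrl score, up to 30 next to genes of 4 lists, and the 5 with the greatest change per comparison and direction among those called, of which the text gives a part. A few of these sites are not reported here. The members and lists were chosen with earlier results of these data known. Replicate numbers did not pair the samples.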

Additional observations from a re-analysis of the deposited data

Results flagged for a closer look

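For RNAPII-pS5 the IL-4 effect with LPS differed from that without LPS (limma interaction over all 8 samples, adjusted p of at most 0.05) at 11 of the named sites. Values are the log2 effect with LPS minus that without, on centred scores, and where a group had no peak they depend on the score put in for it.

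At 4 sites the effect was smaller with LPS and ctrl/LPS samples had peaks of their own. The difference was −1.88 at Slc30a4 (effects 3.70 without and 1.82 with LPS, limma adjusted p = 0.0351), −2.42 at Cblb, an E3 ubiquitin ligase gene (3.82 and 1.40, adjusted p = 0.00931), −3.20 at Gda (3.44 and 0.24, adjusted p = 0.0142) and −3.56 at Tnfsf15 (4.56 and 1.00, adjusted p = 0.00817).

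At Mgl2 (−3.26), Plk2 (−2.42), Traf1 (−2.60) and Cxcl3 (−1.85) an RNAPII-pS5 peak was found in both IL-4 PT/ctrl samples and in none of the other 6. Limma adjusted p was 0.00817 for the first 3 and 0.0133 for Cxcl3.

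The Dcun1d2 site went the other way (1.80, limma adjusted p = 0.00857), with peaks of 5.56 and 5.73 in IL-4 PT/LPS alone. At the Socs1 promoter the difference was 3.50 (−2.72 without and 0.785 with LPS, limma adjusted p = 0.00817), over a merged region that takes in ctrl/LPS peaks of 7.85 and 10.07 beside the site. IL-4 PT/ctrl peaks of 12.84 and 16.21, lying 1731 bp away, were not part of it. At a Socs1 site in a Clec16a intron it was −2.65 (adjusted p = 0.0303), where ctrl/LPS scores of 12.68 and 11.3 stood against a single IL-4 PT/LPS peak of 3.2.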

How the results depend on the processing

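Of 165 alternative counts, 90 were within 1.5 times of the main count and 75 moved further, 35 of them on leaving out 1 sample. The causes of these moves were not tested beyond what each setting itself changes. With no centring the gained sites called higher and lower were 466 and 8 for p65 with LPS, 0 and 0 for p300 (215 and 1 at an unadjusted limma p of at most 0.05) and 0 higher for PU.1 (235 unadjusted). Quantile normalization gave 91 and 8 for p65, 397 and 248 for p300 and 0 higher for PU.1 (178 unadjusted). A floor 4 times as high gave 91 lower for p65, 85 higher for PU.1, 132 and 7 for RNAPII-pS5 without LPS and 44 and 14 with LPS. Requiring a peak in every sample gave 35 lower for p65, 73 higher for PU.1, 50 and 3 for RNAPII-pS5 without LPS and 48 and 24 with LPS. With no filter on peak number the counts were 166 and 6 for p65, 34 lower for p300, 98 higher for PU.1, 93 and 1 for RNAPII-pS5 without LPS and 0 and 0 with LPS (246 and 73 unadjusted). At an unadjusted limma p of at most 0.05 they were 468 and 55 for p65, 203 and 41 for PU.1, 45 lower for RNAPII-pS5 without LPS and 66 lower with LPS.

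The replicate numbers did not pair the samples: replicate differences correlated by −0.0136 to 0.0554 between the groups compared. With the replicate block, p65 gave 141 and 13, PU.1 46 higher, and RNAPII-pS5 without LPS 0 and 0 (464 and 38 unadjusted).

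Without 1 sample at a time, the rule found 2013 to 3887 gained sites (3322 and 3887 without IL-4 PT/ctrl replicate 1 or 2), of which 1347 to 1837 had a p65 peak in both ctrl/LPS samples and 1696 to 2582 in both IL-4 PT/LPS samples. Peaks sharing 50% gave 1367 gained sites, and a score of at least 5 gave 974. The range was 92 to 325 higher and 14 to 24 lower for p65. For p300 it was 269 to 503 higher (lowest without IL-4 replicate 1) and 44 to 264 lower (44 and 47 without IL-4 replicate 1 or 2, 264 without untreated replicate 2). For PU.1 it was 2 to 137 higher (137 and 108 without untreated replicate 1 or 2, 31 and 2 without IL-4 replicate 1 or 2) and 0 to 3 lower. For H3K27Ac it was 243 to 310 higher and 186 to 247 lower. For RNAPII-pS5 it was 6 to 214 higher and 1 to 4 lower without LPS, and 0 to 24 higher and 0 to 21 lower with LPS. A group left with 1 sample is assumed to vary like the other.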

Other observations

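HDAC1 peaks were found at 994 and 890 gained sites in the untreated samples and at 892 and 854 in the 1 hr IL-4 samples, and HDAC2 peaks at 918 and 844 and then at 1069 and 846. For both deacetylases the untreated and IL-4 samples overlapped. Over all merged p65 regions HDAC1 peaks numbered 13278 and 12072 and then 11353 and 10772, and HDAC2 peaks 11652 and 10727 and then 12626 and 10380. No test was run on these counts.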
